A study of Ovis aries and Mus musculus with 10 samples.

Results

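Mammary gland miRNAs of CD1 mice were compared between lactation day 2 and gestation day 17, the interval that spans birth and the onset of milk secretion. A miRNA was included if the scanner software called it detected on at least 1 of the 2 arrays, which held for 199 of 567 mouse miRNAs probed; 143 of these were detected on both arrays, 55 at gestation day 17 alone and 1 at lactation day 2 alone. Over all 10 arrays of the series, 267 mouse miRNAs were detected at least once. The inclusion rule used detection and not the difference between the stages, but these are not independent. Members detected on 1 array alone entered through that array. Among them, miR-1, miR-133a and miR-133b (gestation day 17) and miR-375 (lactation day 2) count below as at least 2-fold apart.

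The series holds 5 arrays of CD1 mouse gland (virgin, gestation days 10 and 17, lactation days 2 and 10) and 5 of sheep gland, each with a single sample per stage and day. The animals were untreated, and all samples were total RNA from whole, snap-frozen mammary tissue, so the arrays average over epithelium, fat pad, vessels, blood and any adjoining tissue. How many animals gave each sample, and whether animals were pooled, is not given in the sources used here. Both stages stand on 1 array each on the same slide, so no difference below has a replicate or a test. The virgin and gestation day 10 arrays were on another slide, so where levels are given over the 5 mouse arrays, slide and stage cannot be told apart between gestation days 10 and 17. The only error available is that between spots of the same array: members had a median of 20 spots, and the standard error (SE) this gives for a log2 difference had a median of 0.03 over miRNAs detected on both arrays. That error leaves out all variation between animals, samples and labelling reactions.

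A miRNA is a short RNA that is cut from a hairpin transcript and guides Argonaute proteins to messenger RNAs with a matching site, lowering their stability and translation; many are transcribed together from clusters, and related copies share a seed, the stretch of bases that finds the target. Late in gestation the mouse gland has built alveoli of secretory epithelium wrapped in contractile myoepithelium, and the fat pad around them is being displaced. The fall in progesterone around birth, with prolactin present, switches the alveolar cells to copious milk secretion, a step called secretory activation.

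The array at lactation day 2 was dimmer throughout. Over the 94 miRNAs that every one of the 10 arrays detected, the 75th percentile of signal was 936.6 at gestation day 17 and 394.2 at lactation day 2, in arbitrary units of background-subtracted signal, a ratio of 2.38. Among the 143 miRNAs detected on both arrays, the median signal was 158.7 at gestation day 17 and 66.3 at lactation day 2, and 138 of them had the lower signal at lactation day 2. The 5 with the higher signal were miR-181b, miR-720, miR-146b and, close to background on both arrays, miR-31 and miR-7a. No spot was saturated. Each array was therefore divided by its own 75th percentile, and scaled log2 values under -5.11, the floor, were raised to it and have no order there. "Higher" and "lower" below mean higher or lower relative to this scaling, and differences are log2 lactation day 2 minus gestation day 17. A signal that is equal on both arrays and above the floor thus reads as 2.38-fold higher at lactation day 2. Less RNA of every miRNA per unit of input and a dimmer hybridisation cannot be told apart from these arrays.

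After scaling, most miRNAs lay close to equal on both arrays. The median difference was 0.00 over all 199 and over the 143 detected on both arrays, with an SD across miRNAs of 0.58, and 124 of the 143 (86.7%) lay within 2-fold. At least 2-fold higher at lactation day 2 were 9 miRNAs (4.52% of 199), and at least 2-fold lower were 14 (7.04%). At the smaller limit of 1.5-fold the counts were 19 (9.55%) and 26 (13.1%). A total of 61 members lay at the floor on both arrays and could show no difference. In each of the 23 miRNAs past 2-fold, no probe that could be compared went the opposite way. Changed miRNAs were found at all signal levels: 8 (5.59%) of the 143 detected on both arrays were higher and 11 (7.69%) lower, and by mean signal over the mouse arrays these were 1 and 2 of the 48 dimmest, 3 and 4 of the next 47, and 4 and 5 of the 48 brightest.

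The split between higher and lower depends on the scaling. In the value table that the authors deposited, which multiplies each array by a constant of unstated basis, every difference above the floor was 0.44 to 0.45 larger on the log2 scale, and 16 miRNAs were at least 2-fold higher and 4 at least 2-fold lower; falls smaller than this shift become rises in that table. With no scaling the median of the 199 moved to -0.92, with 1 miRNA higher and 94 lower. With the brighter probe of each miRNA in place of the mean of its probes the counts were 14 higher and 7 lower.

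**Figure D1:**
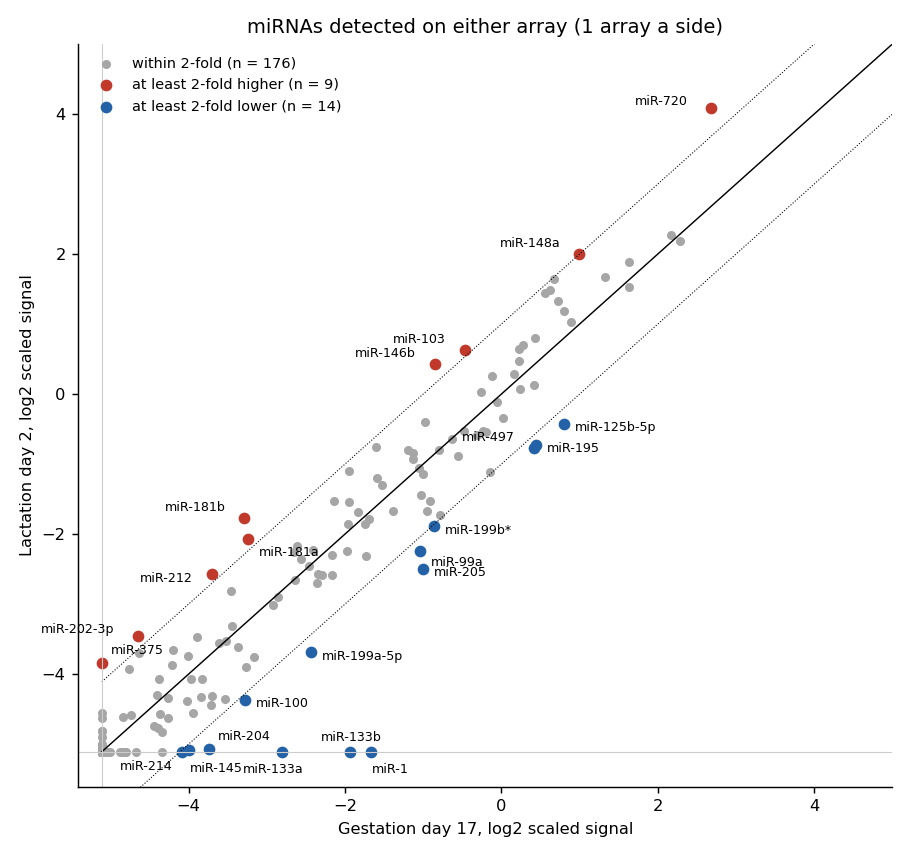
Log2 scaled signal of each of the 199 miRNAs at gestation day 17 (horizontal axis) and at lactation day 2 (vertical axis), 1 array each; the solid line marks equal values, the dotted lines mark 2-fold, and the grey lines mark the floor at -5.11. The 9 miRNAs above the upper dotted line and the 14 below the lower one are named, and miR-1, miR-133a, miR-133b and miR-145 lie at the floor at lactation day 2.

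The miRNAs higher at lactation day 2 were headed by miR-181b, of the miR-181 family. The miR-181 family is best known for setting the signalling threshold of T cells, and it has been studied in milk. The signal of miR-181b before scaling was 95.6 at gestation day 17 and 115 at lactation day 2. Its scaled log2 level was at the floor in virgin gland and at gestation day 10, then -3.29 at gestation day 17, -1.77 at lactation day 2 and -0.87 at lactation day 10, and the difference across birth was 1.52 (spot SE 0.03). Its relative miR-181a had signals of 99.1 and 93.5 and a difference of 1.16 (spot SE 0.03). The miR-181a level followed the same course, from the floor in virgin gland through -4.89, -3.24 and -2.08 to -0.68 at lactation day 10. The 2 probe targets lie 196 bp apart from end to end at chr1:139863054-139863249 (mouse build mm9, as all positions here, from the array's own annotation). The array also lists miR-181a-2*, from another miR-181a hairpin, on chromosome 2. The signal of miR-181a can thus not be assigned to chromosome 1 alone, and the locus behind that of miR-181b was not tested.

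The other members of the family went apart from miR-181a and miR-181b. miR-181c and miR-181d, which lie together at chr8:86702658-86702841, had signals of 65.9 and 71.1 at gestation day 17. At lactation day 2 their signals were 23.6 and 18.2, and their differences were -0.23 (spot SE 0.04) and -0.72 (spot SE 0.06). In the authors' table these would be raised by up to 0.45, so the sign for miR-181c is not settled; the gap between the pairs is not touched by the scaling. How well the probes separate the 4 related sequences was not tested.

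miR-146b, of the family that targets the signalling adaptors TRAF6 and IRAK1, had a signal of 518 at gestation day 17 and 532 at lactation day 2. Over the 5 mouse arrays its scaled log2 level was -3.83 in virgin gland, -3.12 and -0.85 in gestation and 0.43 and 1.95 in lactation. Its difference across birth was 1.29 (spot SE 0.02). The separately encoded relative miR-146a differed by -0.30.

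miR-148a, among the most abundant miRNAs of milk and a repressor of the DNA methyltransferase DNMT1, had signals of 1865 and 1579. Its scaled log2 level was -1.76 in virgin gland and -1.18 at gestation day 10. It stood at 0.99 at gestation day 17, 2.00 at lactation day 2 and 2.09 at lactation day 10. The step across birth, 1.01 (spot SE 0.01), made miR-148a the member just inside the 2-fold limit, and the one just outside was miR-200c at 0.97. Of its relatives, miR-148b lay at the floor on both arrays and miR-152 differed by -0.04.

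miR-375, an epithelial and pancreatic islet miRNA that also occurs in milk, was the only miRNA detected at lactation day 2 and not at gestation day 17. Its signal was -2.31 at gestation day 17, which is no signal above the local background, and 27.6 at lactation day 2. It was at the floor on the virgin, gestation day 10 and gestation day 17 arrays and at -3.84 and -1.29 on the 2 lactation arrays. At lactation day 2 it was at least 2.41-fold higher, a bound set against the floor. Under normexp, a different background correction run with an offset of 50 added to every spot, miR-375 and miR-202-3p lay at the floor on both arrays. The signals of both given here are under 50, and the part of the offset in this was not tested.

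miR-212 is encoded beside miR-132. Its signal was 72.0 at gestation day 17 and 66.1 at lactation day 2. Its scaled log2 level was -4.38, -4.12, -3.70, -2.58 and -2.07 in order of stage from virgin to lactation day 10, with a difference across birth of 1.13 (spot SE 0.04). Its locus partner miR-132 was detected on neither of the 2 arrays.

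miR-103 and miR-107, close relatives that lie within pantothenate kinase genes and affect insulin sensitivity, were higher together. miR-103 had signals of 677 and 611 and a difference of 1.10 (spot SE 0.03). miR-107 had signals of 307 and 232 and a difference of 0.84 (spot SE 0.02). Their sequences are nearly identical, and how well the probes separate them was not tested. Up to gestation day 17 miR-103 ranged from -0.47 to -0.12 on the log2 scale, and in lactation it was 0.63 and 0.74.

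The remaining 2 of the 9 call for care. miR-720 had signals of 5987 and 6678 and a difference of 1.41 (spot SE 0.01); the entry has since been withdrawn from the miRNA registry as a probable fragment of transfer RNA. Under quantile normalization of the 5 mouse arrays the difference of miR-720 was 0.00. miR-202-3p, otherwise known from the gonads, had signals of 37.5 and 35.8, close to the low end of detection, and a difference of 1.18 (spot SE 0.08). Its signal before scaling was also 27.1 in virgin gland, 30.1 at gestation day 10 and 32.8 at lactation day 10. A signal this even reads as higher on a dimmer array once scaled, and its source was not tested.

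**Figure D2:**
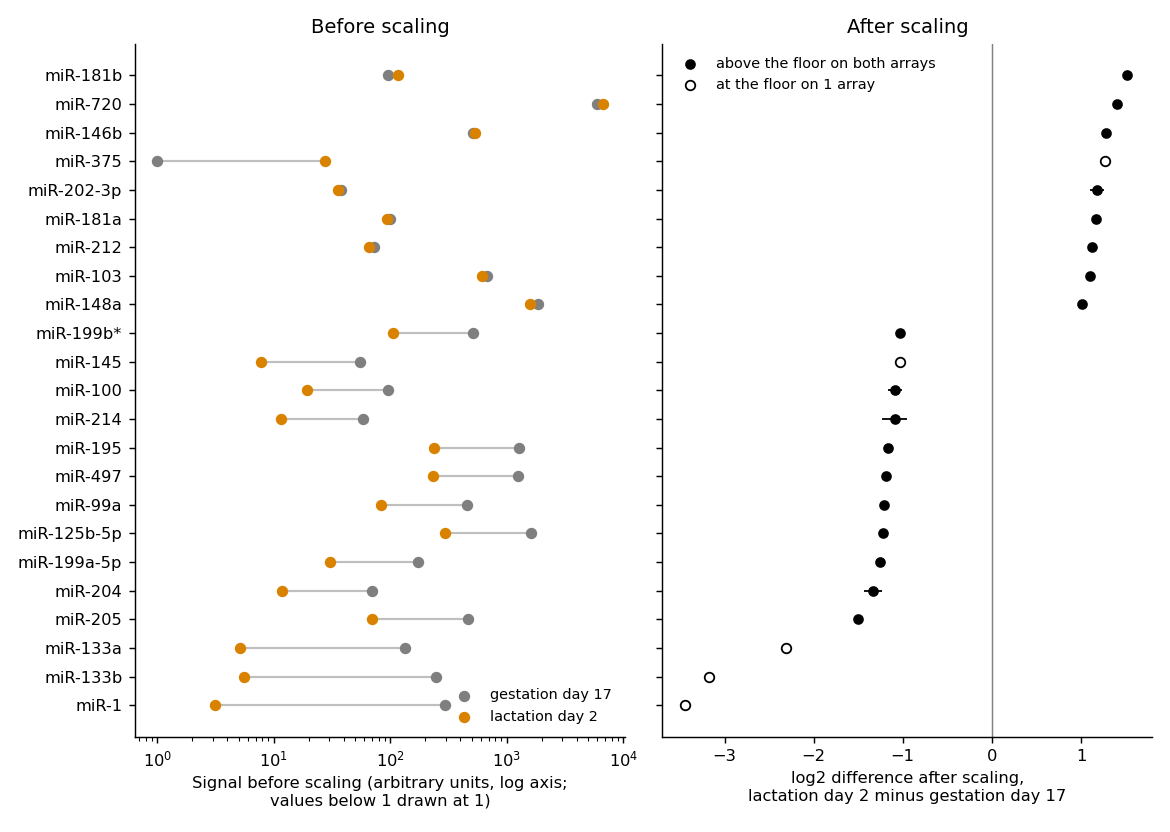
The 23 miRNAs at least 2-fold apart, in order of their difference: the left panel gives the signal before scaling (arbitrary units, log axis) on each of the 2 arrays, and the right panel the log2 difference after scaling, with bars for the spot SE where both arrays were above the floor. In the left panel 8 of the 9 higher miRNAs have nearly the same signal on both arrays, and all 14 lower ones are dimmer at lactation day 2.

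The miR-200 family marks epithelium and restrains the transcription factors ZEB1 and ZEB2. All 5 members were detected on both arrays and all 5 were higher at lactation day 2, although none reached 2-fold and 3 reached 1.5-fold. Above 0 were 32.7% of all 199 and 44.1% of the 143 detected on both arrays, and 9.55% of the 199 were at least 1.5-fold higher. The differences were 0.97 for miR-200c, 0.89 for miR-200b, 0.85 for miR-141, 0.58 for miR-200a and 0.39 for miR-429, with a list median of 0.85 against 0.00 over all 199. The direction held for the list median under all scalings tried, where it ran from 0.37 (quantile) to 1.30 (authors' table), relative to the median of all members. The family is encoded at 2 places, chr6:124667935-124668357 (miR-141 and miR-200c) and chr4:155428025-155429810 (the others), and members of both were higher. Summed over the family, scaled signal was 1.68 in virgin gland, 2.73 and 6.04 in gestation and 10.6 and 14.1 in lactation. The passenger strand miR-141* differed by 0.12, and miR-200a* and miR-200b* lay at the floor on both arrays.

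Other epithelial miRNAs did not move as a group. The cluster of miR-182, miR-96 and miR-183 at chr6:30115962-30119729, known from sensory epithelia, gave differences of 0.53, 0.84 and 0.64. The 2 probes of miR-182 went opposite ways, at -5.59 and 0.62. The skin miRNA miR-203 differed by -0.36, and miR-31, miR-192 and miR-194 were at the floor on both arrays. miR-205, which in the mammary gland is enriched in basal and progenitor cells, went the opposite way from the miR-200 family and had the lowest difference of all miRNAs detected on both arrays. Its signal was 469 at gestation day 17 and 69.6 at lactation day 2. Its scaled log2 level was -3.12 in virgin gland, -1.78 at gestation day 10 and -2.50 and -2.88 in lactation; the gestation day 17 array held the highest level of the 5, and the difference across birth was -1.50 (spot SE 0.03). Of the 9 members in the list, 1 was 2-fold higher (miR-375) and 1 was 2-fold lower (miR-205), with a median of 0.00. The shares of all 199 were 4.52% and 7.04%.

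The list of milk and lactation miRNAs held 14 members, of which 5 were at least 2-fold higher (miR-181b, miR-146b, miR-375, miR-181a and miR-148a) and 0 were 2-fold lower. Of all 199, 4.52% were at least 2-fold higher and 7.04% at least 2-fold lower. The list median was nevertheless 0.00, since 6 members were above 0 and 6 below. This list was written with earlier results on these arrays known, so its count is a description.

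**Figure D3:**
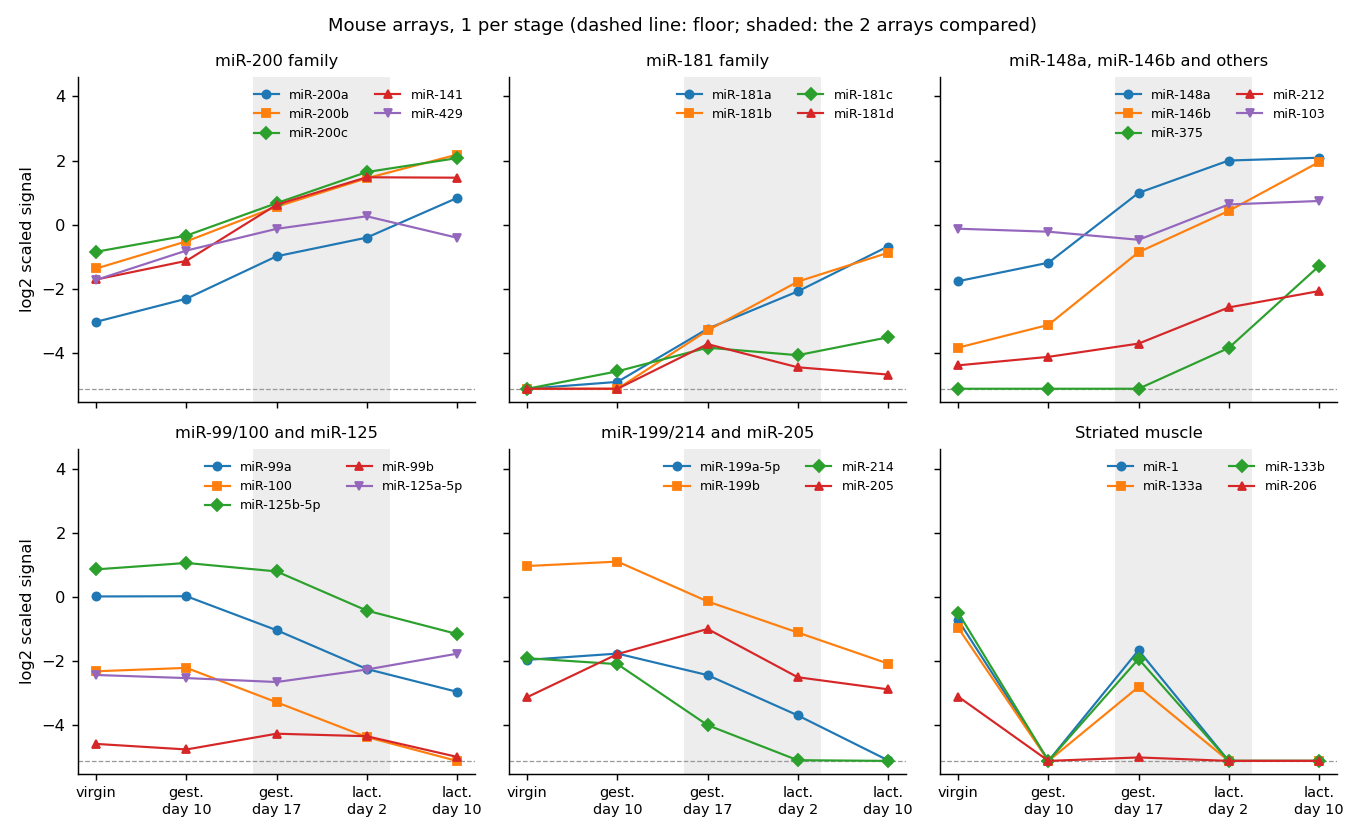
Log2 scaled signal of 6 groups of miRNAs over the 5 mouse arrays, 1 array per stage, with the 2 arrays compared shaded and the floor dashed; the virgin and gestation day 10 arrays were on another slide. The miR-200 family, miR-181a and miR-181b stand higher at lactation day 2 than at gestation day 17, the groups of miR-99 with miR-125 and of miR-199 with miR-214 and miR-205 stand lower except miR-125a-5p, and miR-1, miR-133a and miR-133b are above the floor in virgin gland and at gestation day 17 alone.

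Among the lower miRNAs, the largest differences belonged to striated muscle. miR-1, miR-133a and miR-133b are restricted to heart and skeletal muscle in most surveys. Before scaling, the signal of miR-1 was 296 at gestation day 17 and 3.15 at lactation day 2. That of miR-133b was 245 and 5.52, and that of miR-133a was 134 and 5.15. None of the 3 was detected at lactation day 2, and the scaled levels of miR-1, miR-133b and miR-133a at gestation day 17 were, in that order, at least 10.9-fold, 9.04-fold and 4.94-fold above the floor. The 3 were also above the floor in virgin gland, at -0.73, -0.50 and -0.97 in the same order, and at the floor at gestation day 10 and lactation day 10. miR-206, a further member that is specific to skeletal muscle, had a signal of 29.2 at gestation day 17 and none at lactation day 2. miR-208a, miR-208b and miR-499, the miRNAs of myosin heavy chain genes, were detected on neither array. Summed over the list, scaled signal was 1.94 in virgin gland, 0.0313 at gestation day 10, 0.754 at gestation day 17, 0.0351 at lactation day 2 and 0.0201 at lactation day 10. Without this list, 11 miRNAs were at least 2-fold lower; the part of muscle in the other differences was not tested.

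A second set of lower miRNAs comes from clusters linked to fibroblasts and mesenchyme. miR-199a-5p and miR-214, which are made from an antisense transcript within a dynamin gene, had signals of 173 and 58.7 at gestation day 17 and of 30.5 and 11.6 at lactation day 2. The differences were -1.25 (spot SE 0.04) for miR-199a-5p and -1.09 (spot SE 0.14) for miR-214, whose 2 probes gave -4.41 and -0.88. The probes for miR-199b, which the array also assigns to miR-199a-3p, gave 850 and 183 and a difference of -0.97, just outside the limit. The opposite strand miR-199b* gave 515 and 106 and a difference of -1.03, just inside it. The 3 probe targets of miR-199a-5p, miR-199b and miR-214 on chromosome 1 span chr1:164147979-164153590. In whole tissue, fewer cells of a type and less of their RNA per cell cannot be told apart.

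miR-199a-5p, miR-199b and miR-214 had lower levels at gestation day 17 than on the 2 earlier arrays, which were on the other slide, and miR-199a-5p had scaled log2 levels of -1.96 in virgin gland, -1.77 at gestation day 10, -2.44 at gestation day 17, -3.69 at lactation day 2 and -5.09 at lactation day 10. The fibroblast and stromal list as a whole was uneven. Of its 9 members 2 were 2-fold lower, 4 were 1.5-fold lower and 0 were 1.5-fold higher, and its median was -0.10 (0.00 in the authors' table). The shares of all 199 were 7.04%, 13.1% and 9.55% in that order. miR-21, miR-22, miR-10a and miR-10b, which many cell types express, lay between -0.10 and 0.15, and miR-196a, a HOX cluster miRNA, differed by -0.82.

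Smooth muscle and myoepithelial miR-143 and miR-145, which are transcribed together, were both lower. miR-143 had signals of 498 and 137 and a difference of -0.61 (spot SE 0.01). miR-145 had 55.4 and 7.83, and was at least 2.04-fold lower; it was above the floor on the gestation day 17 array alone among the mouse arrays. With the authors' table miR-145 and miR-214 lay at the floor on both arrays, so they gave no difference there.

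The miR-99/100 and miR-125 families sit beside let-7 genes in 3 related clusters, and miR-125 is the vertebrate form of lin-4, a regulator of developmental timing. miR-125b-5p had signals of 1625 and 294 and a difference of -1.22 (spot SE 0.02). miR-99a had 457 and 83.1, with a difference of -1.21 (spot SE 0.05). miR-100 had 96.3 and 19.1, with a difference of -1.09 (spot SE 0.08). For all 3, the scaled level at lactation day 10 was lower than on any earlier array, with miR-125b-5p running from 0.86 in virgin gland through 1.06, 0.79 and -0.42 to -1.15.

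The copies in the third cluster, at chr17:17967164-17967804, were not lower to this degree. There miR-99b differed by -0.08, let-7e by 0.20 and miR-125a-5p by 0.39. miR-125a-5p had signals of 149 and 82.2, and miR-99b was dim, at 48.8 and 19.5. The list median over all 5 was -1.09, with 3 members 2-fold lower and none 2-fold higher, against 7.04% and 4.52% of all 199.

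The miR-15/16 seed family acts on cyclins and other cell cycle genes. Its 6 members all lay below 0, with a median of -0.61 (-0.17 in the authors' table), but by very different amounts. Below 0 were 36.7% of all 199 and 44.8% of the 143 detected on both arrays. miR-195 and miR-497, a pair at chr11:70048234-70048584, had signals of 1270 and 1255 at gestation day 17 and of 239 and 231 at lactation day 2. Their differences were -1.16 (spot SE 0.03) and -1.19 (spot SE 0.03). Their levels ran from 0.30 to 0.96 at the 3 earlier stages and from -1.42 to -0.72 in lactation. How many of all members part in this way was not counted. miR-16 differed by -0.93, whereas miR-15a differed by -0.29, miR-15b by -0.06 and miR-322 by -0.01.

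miR-204, made within an ion channel gene and known from retina and kidney epithelium, had a signal of 70.0 at gestation day 17 and 11.7 at lactation day 2. It was not well above background at lactation day 2, and was at least 2.51-fold lower there. miR-130a and miR-301a, which share a seed, differed by -0.72 and -0.61, and the related miR-130b and miR-301b were detected on neither array.

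Large families that many cells express moved little. The let-7 family, which restrains growth genes and rises with differentiation, had all 9 members detected on both arrays, 8 of them above 0 and none past 1.5-fold; above 0 were 65 (32.7%) of all 199, many of which lay at the floor, and 63 (44.1%) of the 143 detected on both arrays. Its median was 0.25, that of let-7a, and its range -0.09 to 0.43. With no scaling let-7a stood at -0.99. That was below the median of all 199 (-0.92), floor values included, and above that of the 143 detected on both arrays (-1.11). miR-17-92 and its paralogs, which promote proliferation, had 11 members on these arrays, 0 above 0 and 9 below; below 0 were 73 (36.7%) of all 199 and 64 (44.8%) of the 143. Their median was -0.30, with miR-18a and miR-93 lowest at -0.59, but it turned to 0.11 in the authors' table. Medians were 0.25 for the miR-29 family (-0.08 with no scaling), 0.00 for miR-30 and -0.15 for miR-26 (0.30 in the authors' table), with no member past 1.5-fold. miR-221 differed by -0.43, and miR-222 was detected on neither array. In the paired clusters of miR-23, miR-27 and miR-24, the list median was 0.11, that of miR-27b. With no scaling miR-27b stood at -1.14, below the medians of all 199 and of the 143 detected on both arrays. After scaling, miR-23a and miR-27a on chromosome 8 gave -0.28 and -0.36 and miR-23b and miR-27b on chromosome 13 gave 0.40 and 0.11.

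**Figure D4:**
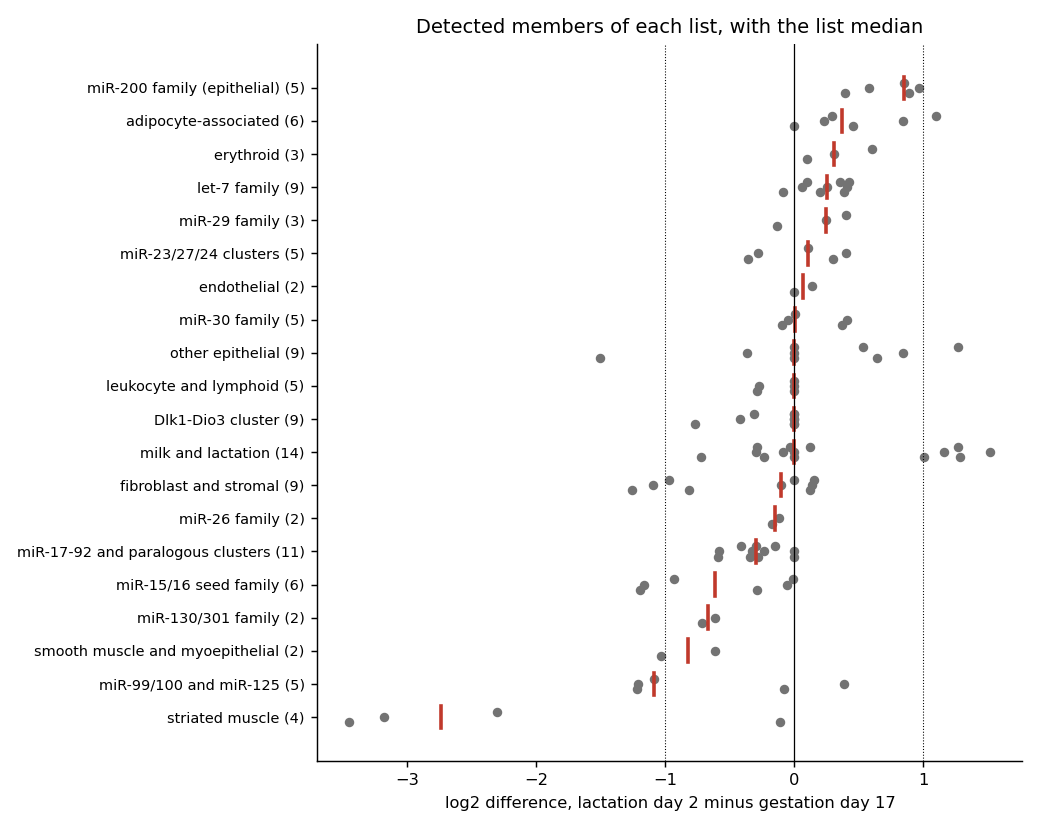
Log2 difference, lactation day 2 minus gestation day 17, of each detected member (grey points) of 20 lists with at least 2 detected members, with the list median in red and dotted lines at 2-fold; the number of members follows each name. The miR-200 family lies wholly above 0, the miR-15/16 family and striated muscle wholly below, and miR-99/100 and miR-125 are split; the authors' table would move points above the floor up to 0.45 to the right.

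Markers of other cell types moved less than the muscle list. Endothelial miR-126-3p had signals of 1741 and 808 and a difference of 0.14, which was -0.37 under quantile normalization. miR-142-3p and miR-223 of blood leukocytes differed by -0.28 and -0.29, and miR-142-5p, miR-150 and miR-155 were at the floor on both arrays. The red cell miRNAs miR-451, miR-144 and miR-486 differed by 0.60, 0.31 and 0.10, with a summed scaled signal of 1.72 at gestation day 17 and 2.60 at lactation day 2. The adipocyte-associated list had 6 members, of which 5 were above 0 and miR-103 alone was past 2-fold. Above 0 were 32.7% of all 199, and 4.52% were at least 2-fold higher. The median of the list was 0.37, and miR-378 differed by 0.45. The liver miRNA miR-122 was detected on neither array, and of 5 neural miRNAs only miR-128 was, at the floor on both. The imprinted Dlk1-Dio3 cluster had 47 miRNAs on the array and 9 among the members, 6 of them at the floor on both arrays. miR-127 of that cluster had signals of 46.2 and 5.97 and was at least 1.70-fold lower.

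When probe targets within 10000 bp were joined, 24 clusters held at least 2 members above the floor, 14 of them exactly 2, and 3 of those were the strands of 1 hairpin. The positions are those that the array gives, and further loci of a miRNA were not considered. Within a cluster the differences had a median range of 0.36. In 20 of the 24 all such members lay on 1 side of 0, but in the authors' table, with its shift of 0.44 to 0.45, this held for 11, and no share for unlinked miRNAs was computed. The exceptions among the 24 here were the miR-30a strands, miR-29b with miR-29c, let-7b with let-7c, and the miR-99b cluster on chromosome 17.

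The 55 miRNAs detected at gestation day 17 alone were mostly dim. Their median signal at gestation day 17 was 16.4, 52 of them were under 50, and 45 lay at the floor on both arrays, where no difference could be measured. The 3 above 50 were miR-1, miR-133a and miR-133b.

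The pair of mouse arrays with no array in common, lactation day 10 against gestation day 10, was set beside the pair across birth. Over the 108 miRNAs detected on all 4 arrays, the differences correlated with Pearson's r = 0.79 and Spearman's rho = 0.74, as a description across miRNAs, which share the scaling miRNAs and the floor. All 9 miRNAs that were 2-fold higher across birth were above 0 in that pair, as were 36.7% of the 199, floor values included, and 55.6% of the 108. Among the 9 were miR-146b at 5.07, miR-181b at 4.23 and miR-148a at 3.27. Of the 14 lower ones 10 were below 0, as were 33.2% of the 199 and 43.5% of the 108, with miR-199a-5p at -3.32 and miR-99a at -2.98. The other 4, miR-1, miR-133a, miR-133b and miR-145, lay at the floor on both of those arrays. The gestation day 10 array was on the other slide, so slide and stage cannot be told apart in that pair.

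In sheep, lactation day 60 against gestation day 125, also 1 array each and read with mouse probes, the differences correlated less, with r = 0.27 and rho = 0.28 over 115 miRNAs. Of the 9 higher miRNAs 7 were above 0 there, as were 21.6% of the 199, floor values included, and 34.8% of the 115; they were led by miR-375 at 4.14, miR-146b at 3.72 and miR-148a at 1.61. The others were miR-181a at -0.05 and miR-181b at -0.85. Of the 14 lower miRNAs 6 were below 0, as were 35.7% of the 199 and 54.8% of the 115. Of the others, miR-1, miR-133a, miR-133b and miR-195 lay at the floor on both sheep arrays, and miR-145, miR-204, miR-205 and miR-497 were above 0. The miR-200 family, higher in the mouse pair, ranged from -0.87 for miR-429 to -0.12 for miR-200b and miR-200c in the sheep pair.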

How the data were processed

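Total RNA (100 ng, RNA integrity number of at least 6) had been extracted with Trizol, labelled with Cy3 and hybridised, per the labels' protocols. The deposited scanner files hold intensity in arbitrary units on a linear scale, background-subtracted and detrended within each array by Agilent Feature Extraction, version 10.5.1.1 per the file headers and 9.5 per the submitters' processing notes, with no normalization between arrays. Detection, background and outlier marks (scores of 0 or 1) are those of the deposited files. The authors' deposited value table is intensity too: it equalled the software's total signal times 1 constant per array, 0.4509 for gestation day 17 and 1.454 for lactation day 2, within 0.1% for 99.13% of 115 and 100% of 81 miRNAs with a total signal over 50. Its column medians were 0.76 and -2.35; the basis of its constants, and so its centring, is unknown.

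Outlier spots (209 of 11340 at gestation day 17, 192 at lactation day 2) were left out, spots were averaged per probe and probes per miRNA, and each array was scaled to its own 75th percentile over the 94 miRNAs that all 10 arrays detected. The floor is the highest of the 10 arrays' 5th percentiles of detected miRNAs, 0.029; the lactation day 10 array set it. A bound ("at least") is the brighter array's level over the floor or the dimmer level, where 1 array was not well above background. No test was run, as each stage has 1 array. The number of arrays limits the precision. Members, the 24 lists and comparisons were chosen with earlier results of these arrays known.

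Named miRNAs were the 12 highest and 12 lowest differences among those detected on both arrays, up to 6 with the highest signal among those detected on 1 array alone, the 10 brightest on each array, the lists' members and their cluster neighbours. Grouping by seed sequence was not done from sequences, as none was used here; mouse gene annotation was not used either. Python 3.11.15 and, for normexp with an offset of 50, R 4.3.3 with limma 3.58.1 were used. The return of known fold changes was tested on simulated data. The simulated differences were first centred on the miRNAs known to be unchanged, so the centring between arrays was not tested.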

Additional observations from a re-analysis of the deposited data

Results flagged for a closer look

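miR-204 went opposite ways in the 2 species. The log2 difference was -1.33 in mouse, lactation day 2 minus gestation day 17, and 1.90 in sheep, lactation day 60 minus gestation day 125. Its scaled log2 levels were -3.74 and -5.07 on the mouse arrays and -3.46 and -1.56 on the sheep arrays. The difference between the species was not tested, as each side is 1 array and the days of lactation differ.

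The array also carries 10 probe sets for miRNAs of a mouse gammaherpesvirus, which no comparison used. mghv-miR-M1-2 was detected on both arrays, with a signal of 25.6 at gestation day 17 and 25.2 at lactation day 2, where the median negative control spot gave 5.40 and 5.34. It was detected on all 10 arrays, sheep included, at 20.2 to 50.5, and the other 9 probe sets were detected on none. It did not dim with the rest of the lactation day 2 array, and the source of this signal was not tested. Scaled by the 75th percentiles, which had a ratio of 2.38, such an even signal would read as higher at lactation day 2.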

How the results depend on the processing

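No paired analysis was possible because each stage has 1 array and the labels give no animal numbers; for the same reason no replicate could be left out. The counts of 9 higher and 14 lower moved by over 1.5 times with no scaling (1 and 94, with the median over all miRNAs at -0.92), normexp (2 and 3), the brightest probe (14 and 7) and the authors' value table (16 and 4). The normexp setting adds an offset of 50 to every spot, and the part of this offset in its low counts was not tested. The lower count alone moved with quantile normalization (9) and with a floor 4 times lower (37). The other percentiles, Agilent's total signal and the other sets of miRNAs kept both counts within 1.5 times, as did 2 alternatives added after the data were seen (floor from the 2 arrays alone, 9 and 15; without miRNAs at the floor on both, 9 and 14). Of the 9 higher miRNAs 7, and of the 14 lower 4 (miR-1, miR-133a, miR-133b, miR-205), stayed past 2-fold in the authors' table. Over the alternatives, 355 of the named differences moved by more than the spread between spots and 1201 did not, and 64 list medians moved and 232 did not; relative to each setting's median over all miRNAs, no difference past 2-fold changed sign. Without subtracting that median, 5 of the 9 higher miRNAs were below 0 with no scaling (miR-148a, miR-103, miR-212, miR-181a and miR-202-3p). Under normexp, miR-100, miR-133a, miR-145, miR-204, miR-214, miR-202-3p and miR-375 gave 0.00. Signal limits the reading at lactation day 2, where 120 of the 199 were well above background, against 168 at gestation day 17.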
